A study of Caenorhabditis elegans with 2 samples.

Results

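The histone genes of Caenorhabditis elegans were examined in a ChIP-seq experiment on NFYA-1, the worm's NF-YA subunit of the transcription factor NF-Y. Members were all protein-coding genes of the WBcel235 annotation whose symbol is his- followed by a number, which gave 72 of 19985 genes. The series held 2 biological replicates of 1 group, whole young adult hermaphrodites of strain OP404 (age not known). This strain carries the transgene wgIs404 in an unc-119(tm4063) III background and stably expresses NFYA-1 with a GFP-FLAG tag at its C terminus, which was pulled down from sonicated chromatin with an antibody against GFP. All values therefore describe the tagged protein, averaged over all tissues of the worm. With 1 group of 2 samples no test across samples was possible, and every comparison is a description.

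NF-Y is a complex of NF-YA, NF-YB and NF-YC that binds the word CCAAT, and CCAAT boxes are a known feature of mammalian histone promoters. The core histones H2A, H2B, H3 and H4 package DNA into nucleosomes and are needed in bulk when DNA is copied. H3.3 type histones are placed into chromatin outside DNA replication as well, and histone H1 binds the DNA that links nucleosomes. In C. elegans, as in many animals, the genes of core histones lie in repeated groups whose copies are nearly alike in sequence.

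By their RefSeq product names, the members were 17 H2A, 16 H2B, 15 H3, 16 H4 and 5 H3.3 type genes, the H1 gene his-24, and 2 genes (his-39 and his-73) named only as proteins with an H2A/H2B/H3 domain. Chromosome V held 27 of them, IV 22, II 14, X 4, III 3 and I 2. Chained over gaps of at most 5000 bp, 67 genes formed 14 clusters of 2 to 13 genes, and 5 genes stood alone (his-24, his-71, his-72, his-73 and his-74). The genes were short, from 141 to 1576 bp with a median of 384 bp, against a median of 2026 bp over all protein-coding genes. For 64 of them no UTR is annotated, so that the gene start is the start codon.

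Each replicate and the pooled replicates had a list of 30000 peaks. This length is set in advance and takes in background, so having a peak is not by itself a sign of binding. Peaks were ranked within a list by the authors' signal value, rank 1 being the strongest. The lowest, median and highest signals were 13.5, 17.5 and 2947 in the pooled list, 5.52, 7.51 and 836 in replicate 1, and 8.94, 11.7 and 2139 in replicate 2. A final list of 97 peaks had been thresholded by the authors for reproducibility. A peak was given to a gene when its summit lay in the gene or within 1000 bp upstream of its start.

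The sequences at most of the 5 separate pooled summits given to histone genes show what kind of DNA carried those peaks. Each line gives 101 bases of build WBcel235 (ce11) centred on a pooled summit, read on the strand of the histone gene, with CCAAT or its reverse complement ATTGG in capitals. The his-69 window is chrIII:4058513-4058613 on the minus strand, the his-70 window chrIII:4059981-4060081 on the minus strand, the his-62 window chrIV:7486765-7486865 on the plus strand, and the his-32 window chrIV:8333292-8333392 on the plus strand.
his-69: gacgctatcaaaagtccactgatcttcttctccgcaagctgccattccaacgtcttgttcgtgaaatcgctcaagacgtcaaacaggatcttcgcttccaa
his-70: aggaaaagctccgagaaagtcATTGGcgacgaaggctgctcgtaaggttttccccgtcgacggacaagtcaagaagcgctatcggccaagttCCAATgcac
his-62: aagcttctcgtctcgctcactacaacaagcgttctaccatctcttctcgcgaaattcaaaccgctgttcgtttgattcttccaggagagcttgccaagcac
his-32: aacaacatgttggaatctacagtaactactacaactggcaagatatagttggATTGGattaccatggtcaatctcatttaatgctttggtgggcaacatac
Of these windows, those of his-69, his-70 and his-62 are coding sequence of the histone gene itself. That of his-32 is coding sequence of a neighbour, lys-10, named in the worm as a lysozyme gene. The pooled summit of his-74, not printed here, lay outside any gene, and its 101 bases had 23.8% GC. In the printed windows GC was 37.6 to 53.5%.

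Few histone genes had a peak. In the pooled list 6 of 72 did, which is 8.33% (95% exact binomial interval 3.12 to 17.3, covering the counting of genes only). The interval treats genes as independent, though neighbouring histone genes can share a peak and many are copies. Of all protein-coding genes 58.7% had a pooled peak, and of the 7422 genes no longer than the longest histone gene 48.4% did. In replicate 1, 6 histone genes had a peak, against 60.3% of all genes. In replicate 2, 7 did, against 59.3%. A peak in both replicate lists was found at 3 histone genes, or 4.17%, against 49.8% of all genes and 35.6% of those no longer than the longest histone gene. All 3 lists held a peak at 2 histone genes, his-69 and his-70, against 47.3% of all genes. With summits inside the gene alone, 3 histone genes had a pooled peak, against 50.9% of all genes, and with 2000 bp upstream 15 did, against 64.4%. Counting a peak in any of the 3 lists, 11 histone genes (15.3%) had 1 or more, against 70.3%. The low share was thus seen in each replicate and in the pooled list.

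Among the 5000 strongest pooled peaks, 2 histone genes had a peak, again his-69 and his-70, where 18.7% of all genes and 11.0% of the genes no longer than the longest histone gene did. Raising the limit to the 10000 strongest added no histone gene, while the share of all genes rose to 31.4%. No histone gene had a peak of the final list, and 0.45% of all genes did. With genes treated as independent, 0 of 72 allows a share of up to 4.99% (exact binomial). Over the members with a pooled peak the median rank of the best peak was 18995.5, against 9066 over all genes with a pooled peak. This order turned with the window: with 500 bp upstream the medians were 3347 for the 3 histone genes then left and 9347 for all genes, and with the gene alone 3347 and 9401.

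**Figure D1:**
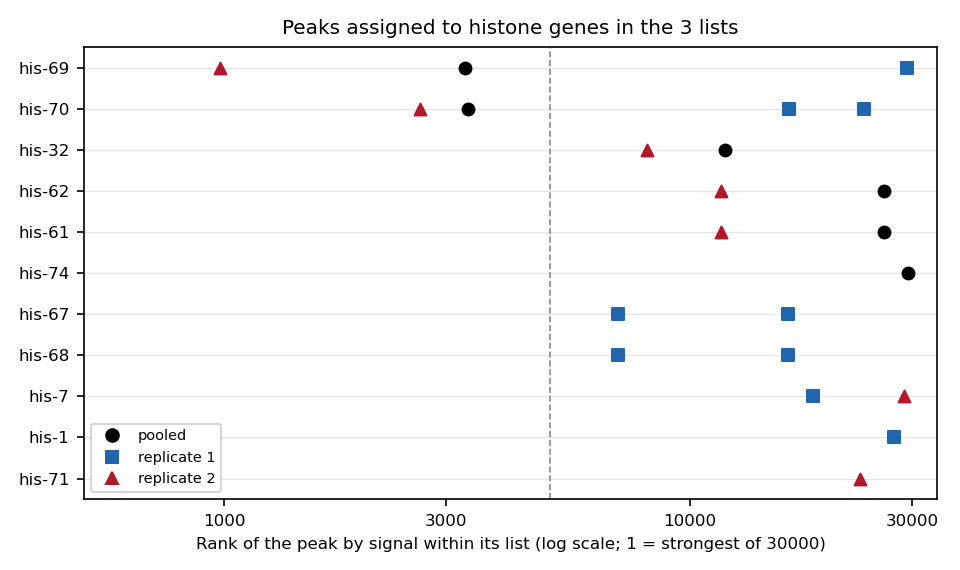
Rank by signal (horizontal, log scale, 1 the strongest of 30000) of every peak given to the 11 histone genes that had a peak in any list; circles are the pooled list, squares replicate 1 and triangles replicate 2, and the dashed line marks rank 5000. Pooled peaks to the left of the line belong to his-69 and his-70, whose replicate 1 peaks lie far to the right, at ranks 29192 and 16311.

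The H3.3 type genes his-69 and his-70 carried the strongest pooled peaks of the family. They lie 971 bp apart on the minus strand of chromosome III and are annotated as H3.3-like type 3 (putative) and H3.3-like type 1. At his-69 the signal was 24.4 in the pooled list (rank 3298), 5.62 in replicate 1 (rank 29192) and 19.97 in replicate 2 (rank 980). At his-70 it was 24.3 in the pooled list (rank 3347), 7.30 in replicate 1 (rank 16311) and 17.1 in replicate 2 (rank 2636). Signals of different lists share no known scale, so ranks are the values to set side by side, and these were high in replicate 2 and low in replicate 1 for both genes. Which of the pair was the stronger also differed, his-70 in replicate 1 and his-69 in replicate 2.

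The replicate summits were 59 bp apart at his-69 and 98 bp apart at his-70, and the replicate peaks overlapped at both genes. Both pooled summits fell in coding exons, 180 bp past the start of his-69 and 88 bp past that of his-70, rather than before the genes. Replicate 1 had a further peak 433 bp upstream of his-70, outside any annotated gene, with a signal of 6.27 (rank 23619). Near the his-70 summit 2 CCAAT words lay within 50 bp, the nearer centred 27 bp away. The word nearest to the his-69 summit was centred 49 bp away, so that the edge of the printed window cuts it to ccaa.

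The other H3.3 type genes had weak peaks or none. At his-74, annotated as H3.3-like type 2, the pooled list had a summit 679 bp upstream, outside any gene, with a signal of 13.7 (rank 29341, close to the end of the list), and neither replicate list had a peak there. At his-71, H3.3 type 1, replicate 2 had a summit 144 bp into the gene with a signal of 10.01 (rank 23160), and the pooled and replicate 1 lists had none. At his-72, H3.3 type 2 and with 1576 bp the longest member, no list had a peak. His-24, the H1 gene, had no peak in any list either, nor had his-73.

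Of the 64 core histone genes, 3 had a pooled peak, from 2 separate peaks. A pooled peak was found at 58.7% of all protein-coding genes and 48.4% of those no longer than the longest histone gene. The H3 gene his-32 was given a summit 963 bp upstream, in lys-10, with a signal of 18.7 in the pooled list (rank 11895) and 13.8 in replicate 2 (rank 8100), and with a CCAAT word 4 bp from the summit. The peak shared by the H2A gene his-61 and the H2B gene his-62 had its summit in the coding exon of his-62, 270 bp past the gene's start, with a signal of 14.4 in the pooled list (rank 26096) and 12.5 in replicate 2 (rank 11646). Replicate 1 had no peak at any of these 3 genes. No H4 gene had a pooled peak.

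Peaks of replicate 1 alone lay at the H4 gene his-67, the H2A gene his-68 and the H4 gene his-1. The pair his-67 and his-68 had a summit in the coding exon of each, with signals of 9.34 (rank 7025) and 7.31 (rank 16272). The summit given to his-1 lay 699 bp upstream, with a signal of 5.81 (rank 27454). It was outside any gene, 52 bp past the end of the H3 gene his-2. At the H2A gene his-7 both replicates had an upstream peak, with a signal of 6.97 in replicate 1 (rank 18354) and 9.08 in replicate 2 (rank 28883), and summits 168 bp apart, 954 bp and 786 bp upstream. Both summits lay past the end of the neighbouring H2B gene his-8, that of replicate 1 in a coding exon of otpl-5. The pooled list had no peak at his-7, which is the third histone gene with a peak in both replicates. Thus 3 genes had a peak only in replicate 1 of the replicate lists and 4 only in replicate 2. Of all protein-coding genes, 60.3% had a peak in replicate 1, 59.3% in replicate 2 and 49.8% in both. Of the histone genes, 8.33% had a peak in replicate 1, 9.72% in replicate 2 and 4.17% in both. A peak in 1 replicate alone thus also occurred at other genes. Beside the shares of the single replicates, the share in both was lower at histone genes than over all genes.

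**Figure D2:**
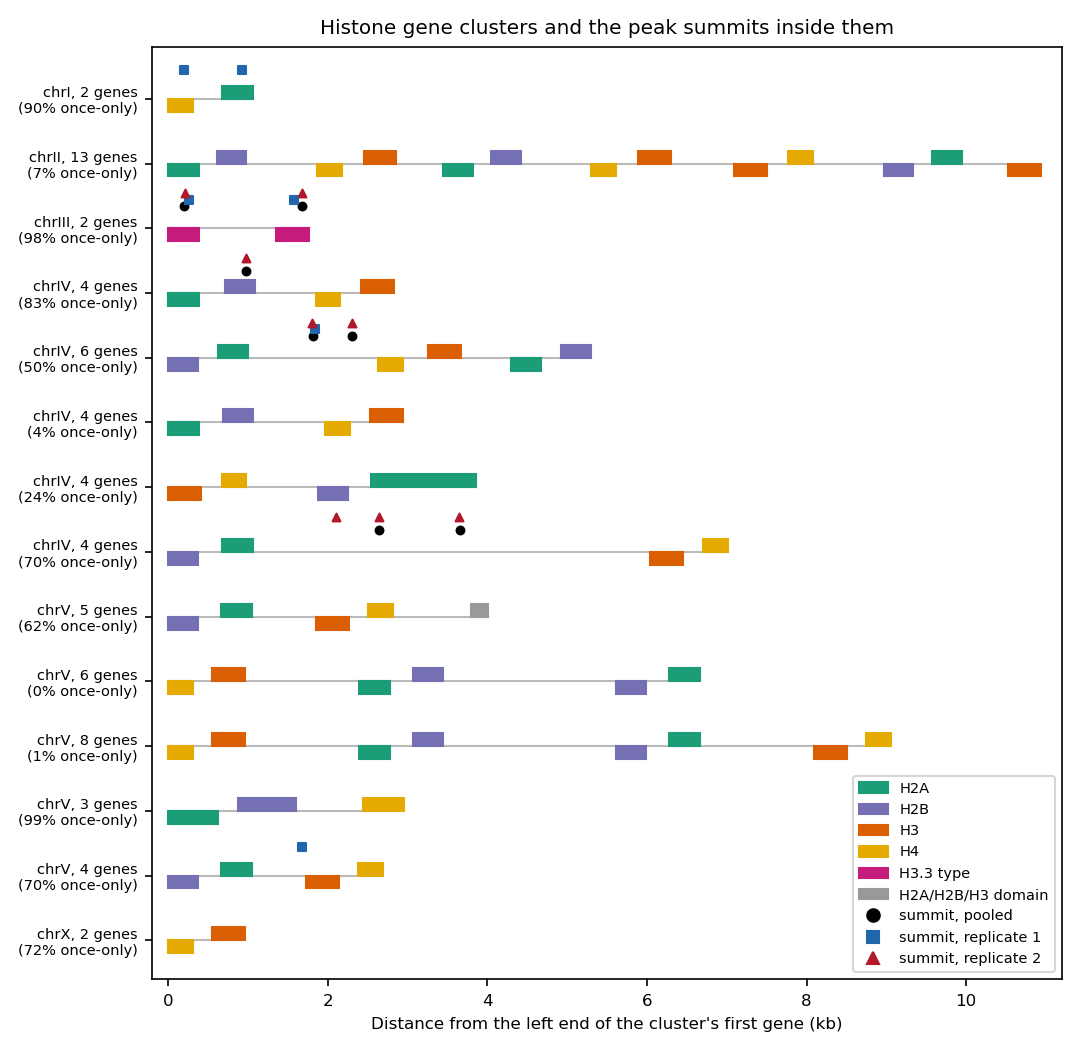
The 14 clusters drawn to scale from the left end of their first gene (horizontal, kb); genes on the plus strand are drawn above each line and on the minus strand below, coloured by histone type, and symbols mark the peak summits inside each cluster in the 3 lists. The 13-gene cluster on chromosome II and the 8-gene, 6-gene, 5-gene and 3-gene clusters on chromosome V hold no summit. The 2-gene cluster on chromosome X and the chromosome IV clusters with his-47 and his-57 hold none either. Percentages beside the names give the share of each cluster's 36-base words that occur once in the genome. Among the clusters without a summit this share runs from 0% (the 6-gene cluster) to 98.97% (the 3-gene cluster).

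Summits were sparser inside clusters than beside them. The 14 clusters spanned 62.001 kb and held 7 pooled summits, or 1.13 per 10 kb, against 3.39 per 10 kb in the 20 kb on either side. Replicate 1 had 0.968 per 10 kb inside and 3.18 beside, and replicate 2 had 1.29 and 3. In the 10 clusters of 4 or more genes the pooled density was 0.905 per 10 kb inside and 3.88 beside. The sides of close clusters overlap, as on chromosome IV, and a summit there was counted for each cluster. A histone gene with a pooled peak was found in 3 of the 14 clusters, and no like count was made for groups of other genes. Several of the summits inside clusters belonged to other genes: pooled summits lay in lys-10 within the 6-gene cluster on chromosome IV, and in memi-3 and cyp-31A2 within the 4-gene cluster that holds his-63 to his-66.

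Core histone genes mostly start in pairs that point away from each other, so that both genes of a pair share the DNA between them. There were 31 such pairs, 62 genes in all, with gaps of 227 to 368 bp (median 258 bp). In 17 of the gaps a CCAAT word was present. No like count was made for the gaps of other gene pairs, so 17 of 31 cannot be called high or low. Of the 31 histone gaps, 17 had no once-only word of 36 bases (a word found once in the genome) and 8 had such words alone. None of the 31 gaps held a summit in the pooled list or in either replicate list. Of all 327 neighbouring divergent gene pairs with gaps in that range, histone pairs included, 3.06% had a summit in the gap in the pooled list, 3.67% in replicate 1 and 2.75% in replicate 2, so that 0 of 31 is near the background.

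Some clusters sat in long stretches without any summit. Neighbouring pooled summits on the nuclear chromosomes were a median of 1609 bp apart, and 98 of 29968 such stretches exceeded 50 kb. The 6-gene and 8-gene clusters on chromosome V, 14 genes in all, lay in 1 stretch of 88.2 kb (chrV:8812032-8900194), the 12th longest, which was 87.5 kb long in replicate 1 and 87.8 kb in replicate 2. The pair his-38 and his-40 on chromosome X lay in the third longest, of 112 kb, which was 64.9 kb in replicate 1 and 61.7 kb in replicate 2. The stretch with his-72 was 81.0 kb in the pooled list, 66.5 kb in replicate 1 and 19.8 kb in replicate 2, and that with his-24 was 60.7, 59.9 and 60.7 kb. In all, 18 histone genes lay in pooled stretches over 50 kb, 31 in replicate 1 and 17 in replicate 2. Of all protein-coding genes 5.26%, 3.98% and 4.57% did. The 13 genes of the cluster on chromosome II passed 50 kb in replicate 1 only, their stretch being 25.16 kb in the pooled list, 70.8 kb in replicate 1 and 25.04 kb in replicate 2.

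Most histone genes consist of sequence that occurs more than once in the genome. A word of 36 bases was called once-only when it occurred once in the genome, counting both strands. Neither the length of the reads nor the treatment of reads that match several places is stated in the labels or the deposited descriptions. Over the gene and its 1000 bp upstream, the median share of once-only words was 22.6% at histone genes and 99.9% over all protein-coding genes. Under 90% once-only were 62 of 72 histone genes, against 15.9% of all genes. At 19 histone genes not a single word of that window was once-only, and at 35 not a single word of the gene itself. No share of all genes was taken for these counts. The 88.2 kb stretch on chromosome V was 3.41% once-only, and 5 of the 98 pooled stretches over 50 kb were under 50%.

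The share of once-only words moved with the presence of a peak. Members with a pooled peak had a median share of 87.6% (range 79.1 to 100), and members without had 18.7% (range 0 to 100). Among genes no longer than the longest histone gene, 5.56% of those under 50% once-only had a pooled peak, 19.5% of those from 50 to 70%, 43.6% of those from 70 to 90%, 55.8% of those from 90 to 99% and 51.6% of those at 99% or more. In the same steps, 0 of 43, 0 of 6, 4 of 13, 1 of 5 and 1 of 5 histone genes had a pooled peak. Of the 10 histone genes at 90% or more, 2 had a pooled peak, against 52.6% of the short genes in that range, and of the 62 under 90%, 4 did, against 29.6%. In each of the 5 steps the share of histone genes was below that of all short genes, histone genes included. The exact interval of the histone genes took in the value of the short genes in every step. These intervals treat genes as independent, which copies and divergent partners with shared DNA are not. No conclusion about a difference within a step was therefore drawn. The part of repeated sequence in the low share of histone genes was not tested.

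**Figure D3:**
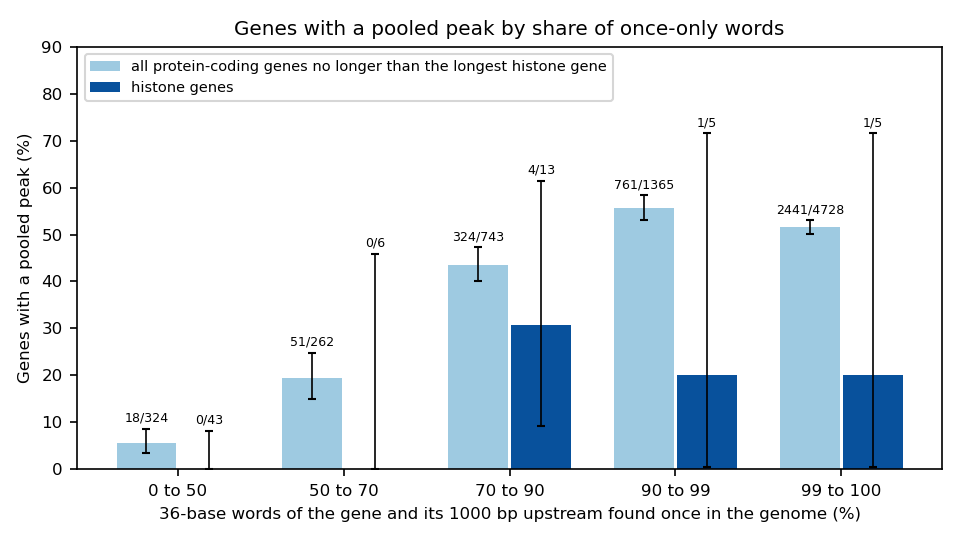
Share of genes with a pooled peak (vertical, percent) in steps of the share of once-only 36-base words (horizontal), for all protein-coding genes no longer than the longest histone gene (light bars) and for histone genes (dark bars); error bars are 95% exact binomial intervals and labels give the counts. The light bars climb from 5.56% to 55.8% over the first 4 steps, and the dark bars rest on 43, 6, 13, 5 and 5 genes.

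Of the 10 histone genes with windows of 90% or more once-only words, 5 had a peak in any list, against 67.2% of the short genes in that range, and 5 had none. His-37, an H4 gene at 100%, his-72 at 99.5% and his-24 at 99.9% had no peak in any list. The H2A gene his-35 at 98.1% and the H2B gene his-41 at 98.2%, neighbours of his-37 in a 3-gene cluster on chromosome V, had none either. Base composition differed as well: the median GC content of the windows was 46.0% at histone genes and 35.7% over all genes, and its part in the result was not tested. Set per once-only base, histone gene windows held 1.51 pooled peaks per 10 kb, against 3.46 in the windows of all protein-coding genes. In replicate 1 this value was 2.12 against 3.44, and in replicate 2 it was 1.81 against 3.45.

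**Figure D4:**
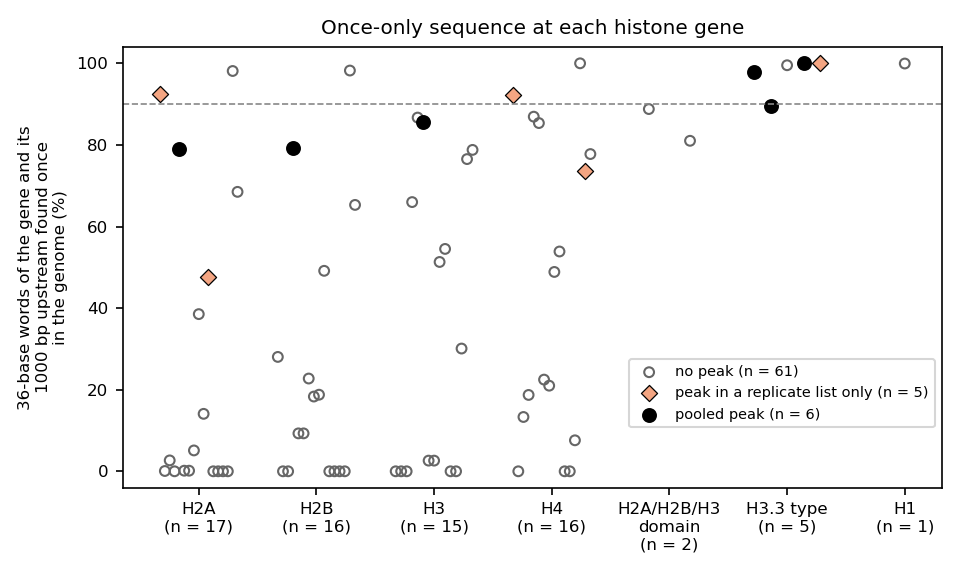
Share of 36-base words of the gene and its 1000 bp upstream that occur once in the genome (vertical, percent) for each of the 72 histone genes by type (horizontal); filled circles had a pooled peak, diamonds a peak in a replicate list only and open circles none, and the dashed line marks 90%. Core histone genes spread from 0 to 100%, and the 5 H3.3 type genes and the H1 gene sit between 89.6 and 100%.

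The types differed in how alike their members were. In coding sequence, pairs of H3 genes were 89.0 to 100% identical (median 91.9) and pairs of H2A genes 86.6 to 100% (median 92.1). Pairs of H3.3 type genes were 72.4 to 87.0% identical (median 77.3). In 14 groups of up to 4 genes the coding sequences were identical, 36 genes in all, and the 72 genes had 50 different coding sequences. The 2 genes with peaks in all 3 lists were also far from the H3 genes. To the H3 gene his-2, his-69 was 77.4% and his-70 74.1% identical. His-74, which had no peak in either replicate list, was 79.7% identical, his-71 85.8% and his-72 86.3%. A BLAST search at 90% identity over 100 bp or more placed his-69, his-70, his-71 and his-74 at 1 place each, and H3 genes at a median of 16 alignments.

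The 60 coding bases that align with bases 178 to 237 of the H3 gene his-9 show this, and were chosen because they hold the position of the his-69 pooled summit. Capitals mark bases that differ from his-9, and all are read 5′ to 3′ on the gene's strand.
his-9: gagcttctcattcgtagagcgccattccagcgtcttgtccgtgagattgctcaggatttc
his-13: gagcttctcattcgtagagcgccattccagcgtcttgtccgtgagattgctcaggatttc
his-2: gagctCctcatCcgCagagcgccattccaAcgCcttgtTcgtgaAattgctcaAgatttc
his-71: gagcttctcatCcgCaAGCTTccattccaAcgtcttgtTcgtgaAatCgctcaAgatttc
his-74: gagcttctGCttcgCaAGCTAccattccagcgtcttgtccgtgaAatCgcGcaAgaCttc
his-69: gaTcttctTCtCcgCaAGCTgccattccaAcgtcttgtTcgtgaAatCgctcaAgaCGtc
his-70: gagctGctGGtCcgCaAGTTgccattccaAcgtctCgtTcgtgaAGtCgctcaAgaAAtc
From his-9, 0 bases differed in his-13, 8 in his-2, 12 in his-71, 13 in his-74, 16 in his-69 and 18 in his-70. The H3 genes his-9, his-13 and his-25 are identical over their coding sequence, and none of them had a peak in any list; the part of their identity in this was not tested.

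CCAAT words lay at the starts of histone genes with and without a peak. In the window from 250 bases before to 50 after the gene start, cut from the RefSeq genome of assembly WBcel235, 39 of 72 histone genes (54.2%) had CCAAT on either strand, against 45.5% of all protein-coding genes. These were 7 of the 11 genes with a peak in any list and 32 of the 61 without. On the gene's own strand 30 did (41.7%), against 31.3%. Since divergent partners share their promoter DNA, the 40 words of these windows were 32 different places. Many words lay close to the coding start: a sense CCAAT centred 5 to 15 bases before it was found at 23 histone genes, or 31.9%, against 1.36% of all genes. By type these were 9 of 17 H2A genes, 6 of 16 H2B genes, 6 of 15 H3 genes, 1 of 16 H4 genes, none of the 5 H3.3 type genes, and his-73. The 23 genes had 12 different sequences over the 30 bases that end with the start codon, so many are copies of each other.

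Examples of these 30 bases, with CCAAT in capitals, show the word beside the start codon, and the last 3 lines show genes of the 13-gene cluster on chromosome II, in which none of the genes had it. Positions on WBcel235 (ce11) are chrV:16042281-16042310 on the minus strand for his-2, chrV:16040781-16040810 on the plus strand for his-3, chrV:16040513-16040542 on the minus strand for his-4 and chrIV:11324437-11324466 on the minus strand for his-47. They are chrII:13823621-13823650 on the plus strand for his-9, chrII:13818141-13818170 on the minus strand for his-16 and chrII:13818344-13818373 on the plus strand for his-15.
his-2: cacagtccttatcggattCCAATtgacatg
his-3: ttttacatctaccaaCCAATcatcaccatg
his-4: gtccaacgaccagtCCAATcaatcgaaatg
his-47: tcgtcttacgaacaCCAATcgctcatcatg
his-9: tccccacggattaccaaccaaagcatcatg
his-16: atcagattcgattctatcaatcaaacaatg
his-15: acttgtttcaagtcaccaactctcaacatg
Of the 23 genes with the word at this place, 0 had a pooled peak and 2 had a peak in any list, his-67 and his-68 in replicate 1. Of the 271 protein-coding genes with the word there, 59% had a pooled peak and 67.9% a peak in any list. Of the 23 histone genes, 11 lie in the 88.2 kb stretch on chromosome V, and the median share of once-only words in their windows was 14.1% over the 23; its part in the count was not tested. A match of these letters is a description of the sequence only.

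**Figure D5:**
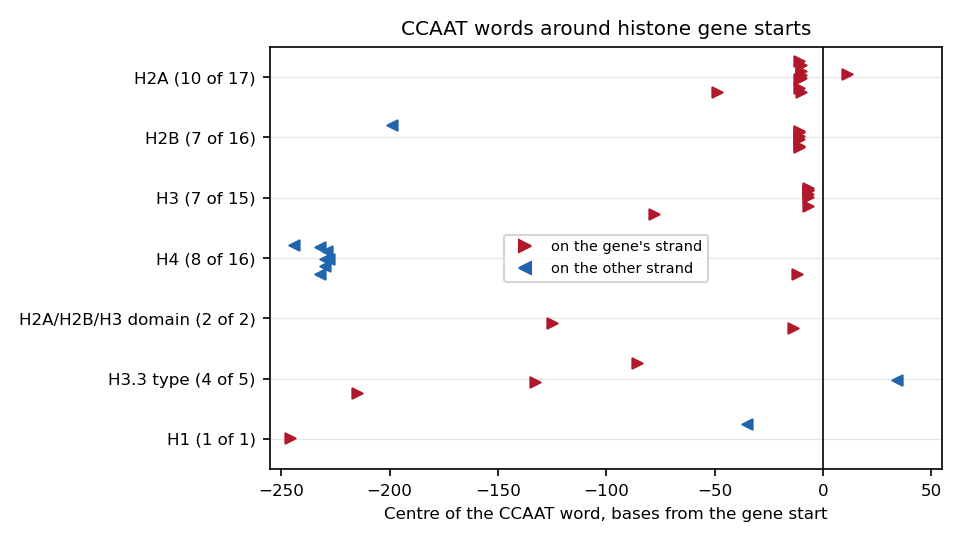
Centre of every CCAAT word in the window from 250 bases before to 50 bases after the start of each histone gene (horizontal, bases from the gene start), by histone type with the number of genes that have the word; triangles pointing right are on the gene's strand and those pointing left on the other. Most words of the H2A, H2B and H3 genes gather within 15 bases before the start, and the median word of the H4 genes lies 230 bases before it, mostly on the other strand; 7 of the 8 H4 words are the same places as words of a neighbouring histone gene.

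CCAAT was present near some of the summits. With the whole word within 50 bp of the summit, 2 of 5 separate pooled peaks given to histone genes had the word, those of his-70 and his-32, against 21.7% of all pooled peaks. In replicate 1 it was 1 of 7, against 22.1%, and in replicate 2 it was 2 of 6, against 21.5%. Counted by the centre of the word, his-69 joined the other two and made 3 of 5 in the pooled list, against 22.5%, with 1 of 7 in replicate 1, against 22.8%, and 2 of 6 in replicate 2, against 22.3%. With 5 to 7 peaks these shares cannot be told from those of all peaks.

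Other genes of histone supply had peaks more often than the histone genes themselves, but in the full lists not more often than all protein-coding genes. Of a list of 25 genes for H1-like proteins, histone variants and the chaperones that carry histones, 11 (44%) had a pooled peak, 13 a peak in replicate 1 and 13 in replicate 2, and 12 in both replicates. Among the 5000 strongest pooled peaks were those of 6 genes, or 24%, and in the final list none. Over all protein-coding genes the same shares were 58.7% in the pooled list, 60.3% and 59.3% in the replicates, 49.8% in both and 18.7% among the 5000 strongest. In contrast to the histone genes, 21 of the 25 had windows that were 90% or more once-only. Their lengths also differed, from 661 to 5806 bp against 141 to 1576 bp at histone genes. The part of either in the counts was not tested.

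The strongest of these was nap-1, for a nucleosome assembly protein that chaperones H2A and H2B, with a signal of 33.9 in the pooled list (rank 260), 8.58 in replicate 1 (rank 9811) and 27.7 in replicate 2 (rank 84). As at his-69 and his-70, its rank was far higher in replicate 2 than in replicate 1. Of the H1-like hil genes, 3 of 7 had a pooled peak, with hil-2 at pooled rank 804, hil-5 at 2528 and hil-6 at 8861. Hil-5 had like ranks in both replicates, 2239 and 2354. The FACT chaperone genes spt-16 and hmg-3 had pooled ranks of 2729 and 3086, and nasp-2 had 3221, while hmg-4, the other FACT gene of the list, and nasp-1 had no peak in any list. Cdl-1, whose product binds the stem-loop of histone mRNA, had a pooled rank of 21183. Cpar-1, a second gene of a centromeric H3 variant, had weak peaks at pooled rank 18887 and rank 29138 in replicate 2, and rank 4016 in replicate 1. No list had a peak at htz-1, the gene of the H2A variant H2A.Z, at hcp-3, a gene of the centromeric H3 variant, or at hira-1, lin-53 and rba-1, genes of histone chaperone subunits.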

How the data were processed

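Peak lists from ChIP-seq of 2 biological replicates were used. Per the deposited descriptions, peaks were called for each replicate and for the pooled replicates, each from alignments and a control on build ce11, and the final list was thresholded with the irreproducible discovery rate. No source used here names the aligner or the peak caller, or gives the read length. The deposited signal value of each peak has no stated scale and was used for ranks and descriptions inside each list and for nothing else. The deposited score where q-values usually stand was not used. The files give no read counts, so the depth and the precision of a signal are unknown. Lists on ce10 were not used.

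Genes came from Ensembl release 115. Its symbols repeat among histone genes (50 symbols for 72 genes), so names were taken from RefSeq at identical coordinates, which matched 72 of 72. Words of 36 and 50 bases were counted over both strands of the whole genome with Python 3.11.15 and numpy 2.4.6, coding sequences aligned with Biopython 1.88, and genes searched with BLAST 2.17.0. Peak assignment and word counting were tested on simulated data. Named were the 10 members with the highest pooled signal (6 had one), those with a peak in all 3 lists, all single genes, the H1 and H3.3 type genes and the list of 25; other genes were named after their values were seen. Members and lists were chosen with earlier results of these data known. Promoter windows were cut from the genome, and identity was measured on coding DNA where the plan named proteins. Alternatives were other windows, rank limits, gaps between chained genes, CCAAT distances and word lengths, and leaving out each replicate.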

Additional observations from a re-analysis of the deposited data

How the results depend on the processing

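Of the alternative values of the main results, 25 stayed within their limits and 17 did not. The limit was a fixed fold change for counts. For the median rank it was the standard deviation of the medians of the single replicates, 4021 ranks. The tally includes the alternatives chosen after seeing the data, and is a description only. The number of histone genes with a pooled peak was 3 with 500 bp upstream, 15 with 2000 bp (20.8%, against 64.4% of all genes), 3 with the gene alone (4.17%, against 50.9%), 2 among the 10000 strongest and 0 in the final list, and 6 to 7 in the lists of single replicates. Those among the 5000 strongest were 6 with 2000 bp upstream, and 0 in replicate 1 and 2 in replicate 2. Clusters with a pooled peak were 7 with 2000 bp upstream, and 4 in each replicate. The median rank was 3347 with 500 bp or the gene alone, 11895 with 2000 bp, 25927 when any overlap counted, and 11646 to 17332.5 in single replicates. Genes with a peak in both replicates were 11 with 2000 bp and 0 among the 10000 strongest of each list. No share of all genes was taken for the 500 bp count, for the 5000 strongest under other settings, or for these counts in both replicates. The rise of those counts with 2000 bp thus cannot be set against a rise over all genes. Peaks with CCAAT near the summit were 1 within 25 bp, and 1 to 2 in single replicates. The cause of these shifts was not tested. His-69 and his-70 ranked 29192 and 16311 in replicate 1 alone, and 980 and 2636 in replicate 2 alone. In alternatives chosen after seeing the data, 3 pooled peaks had CCAAT near the summit when its centre was counted, and 56 histone genes were under 90% once-only with words of 50 bases. No paired analysis was possible because there was 1 group only.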

Other observations

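Between 1000 and 2000 bp upstream of histone genes, outside the rule used above, several strong peaks lay in neighbouring genes. In the kinesin gene klp-12, 155 bp beyond the end of the H2A gene his-57 and 1752 bp upstream of the H2B gene his-58, the pooled list had a summit with a signal of 31.99 (rank 448). Replicate 1 had a summit there with a signal of 16.1 (rank 251), and replicate 2 had 16.7 (rank 3026), so this peak was strong in both replicates, unlike those of his-69 and his-70. In alg-5, an Argonaute gene 723 bp from his-68, the pooled summit had a signal of 23.8 (rank 3814), with ranks of 1524 in replicate 1 and 18701 in replicate 2. In edg-1, 791 bp from the H2A gene his-47, the pooled rank was 3669, with 7910 in replicate 1 and 6526 in replicate 2. A summit 1181 bp upstream of the H3.3 type gene his-74, in the gene W05B10.3, had a pooled rank of 4561 and a rank of 1569 in replicate 2, and replicate 1 had no summit nearer than 1946 bp upstream (rank 12116). These neighbours were named after their values were seen.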
